A study of Mus musculus with 2 samples.

Results

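Nos2 macrophages of the mouse colon were examined here: 298 of the 20052 cells that passed quality filters in 2 scRNA-seq libraries. They were chosen by what was counted in each cell. A cell was taken when it held at least 1 unique molecular identifier (UMI, 1 captured mRNA molecule) of Nos2, at least 1 of Csf1r, at least 1 of Il6, Il12b, Slc7a2 or Il23a, and none of Xcr1, Cd3e or Cd79a. Nos2 encodes inducible nitric oxide synthase, Csf1r the receptor that macrophages need for survival, and the last 3 genes mark a class of dendritic cells, T cells and B cells. The Runx3_fl library gave 246 of these cells and the Runx3 library 52. Every gene in the rule is therefore fixed by the choice, and the values of those genes below are descriptions of the cells selected on them.

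The study asked how loss of the transcription factor RUNX3 in macrophages alters the macrophages of the gut, and compared RUNX3 fl/fl mice that carry Lyz2-Cre with RUNX3 fl/fl littermates. Lyz2-Cre is known to act in cells of the myeloid lineage, neutrophils included. Colon immune cells of young adult male mice were pooled for each library and recovered from a Percoll gradient, dead cells were gated out, and the labels give the cells as cd11b+ cells of the gut lamina propria. There was 1 library per title, and the titles Runx3_fl and Runx3 do not state which mice carried Cre, so the libraries are named by their titles throughout and no genotype was assigned to either. No treatment is named for them. With 1 library for each title no difference can be tested, and no p-value is given. Brackets hold exact 95% intervals, which cover counting error only and not the variation between mice or preparations. Runx3 itself stood at 186 [172 to 201] counts per 1000000 (CPM, the UMIs of a gene per 1000000 UMIs summed over a group of cells) in the Nos2 macrophages of the Runx3_fl library and at 230.1 [200.3 to 263] CPM in those of the Runx3 library. The position of the loxP sites is not given in the sources used here, and reads from the 3' end of a transcript cannot check a deletion elsewhere in the gene.

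The libraries differed in depth and in make-up. The Runx3_fl library held 11885 kept cells with a median of 9573 UMIs, and the Runx3 library 8167 with a median of 5731. Before filtering, 37 barcodes occurred in both libraries, and 1 Nos2 macrophage of the Runx3 library and 0 of the Runx3_fl library carried such a barcode. Xist, which is transcribed in female cells, was found in 29.9% of the kept Runx3_fl cells and in 0.122% of the Runx3 cells, although the study describes the mice of both as male. In the Runx3_fl library 2756 cells had Xist and no UMI of 4 Y-linked genes, and 7059 had the reverse. Nos2 macrophages were present in both sets, at 23 of 423 Csf1r-positive cells with Xist alone (5.44% [3.48 to 8.05]) and 174 of 1693 with Y-linked genes alone (10.3% [8.87 to 11.8]). The Runx3 library had 48 of 2587 such Y-linked cells (1.86% [1.37 to 2.45]). The share, the counts over all genes, the ranges of the named genes and the main list medians are given below also without Xist-positive cells. The shares of cells with a UMI and the comparisons within the group were computed only with them.

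Macrophages that meet bacterial products together with interferon-γ switch on Nos2. The enzyme turns arginine into nitric oxide, which is toxic to microbes, and the arginine is brought in by transporters such as Slc7a2. The same stimulation brings on Il6, Il12b and Il23a, which encode IL-6 and the subunits of IL-12 and IL-23, cytokines that steer T cells and innate lymphocytes. In the gut, blood monocytes bearing Ly6C are continually recruited and mature into resident macrophages, which produce little of these cytokines and instead carry complement C1q, Mrc1 and Il10. Inflammatory macrophages with Nos2 are known from colitis, where arriving monocytes do not complete that path.

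Nos2 macrophages made up a larger share of the Runx3_fl library than of the Runx3 library. They were 2.07% [1.82 to 2.34] of kept cells in the former and 0.637% [0.476 to 0.834] in the latter, and 9.18% [8.12 to 10.3] of 2679 Csf1r-positive cells against 1.65% [1.23 to 2.16] of 3154. The intervals do not overlap, but they cover counting error only, and the group was chosen with earlier results of these data known. The rule needs at least 3 genes in a cell and so depends on depth. When each cell was thinned to 2000 UMIs the shares were 0.364% [0.261 to 0.493], 41 of 11269 cells, and 0.0794% [0.0258 to 0.185], 5 of 6299 cells, with 616 and 1868 shallower cells left out. Without Xist-positive cells the Runx3_fl share was 2.31%, from 193 Nos2 macrophages. The difference between libraries has no replicate, and the share of a type also depends on how many other cells the preparation recovered.

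The Nos2 macrophages held more UMIs than other Csf1r-positive cells. Their median UMI count was 14501 (range 1388 to 39670) in the Runx3_fl library and 16672.5 (1686 to 37352) in the Runx3 library, above the 12659 and 9458 of Csf1r-positive cells with no Nos2, called Nos2-negative cells from here on. The median mitochondrial share was 1.68% and 1.40%. A doublet caller marked 27 of the 246 cells (10.98%) and 4 of the 52 (7.69%). The cells that met the other criteria but held Xcr1, Cd3e or Cd79a, 72 and 16 in number, were deeper, with medians of 24196 and 19675.5 UMIs, and the caller marked 48 and 5 of them.

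Many of the Nos2 macrophages lay at the limit of the rule. Nos2 ranged from 1 to 77 UMIs per cell with a median of 3 in the Runx3_fl library and from 1 to 26 with a median of 2 in the Runx3 library. Of the Nos2 macrophages 77 and 23 held a single Nos2 UMI, and 35 and 6 held 10 or more. Another 56 and 50 cells had Nos2 and Csf1r but none of the 4 further genes. In all, 504 kept cells of the Runx3_fl library and 169 of the Runx3 library had a Nos2 UMI, of which 110 and 35 lacked Csf1r. The Nos2 macrophages carried 57.1% and 39.7% of the Nos2 UMIs of all kept cells and 2.66% and 1.41% of all UMIs.

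Of the genes that gave entry to the group, Il6 was the most frequent. It was found in 177 of the 246 Runx3_fl cells (72.0%) and in 36 of the 52 Runx3 cells (69.2%), at 358 [338 to 378] and 118.9 [97.7 to 143] CPM, with 126 and 32.5 CPM in Nos2-negative cells. Il23a followed with 150 and 27 cells (61.0% and 51.9%), at 251 [235 to 267] and 56.2 [41.96 to 73.7] CPM beside 87.8 and 28.4 CPM. Slc7a2 was found in 108 and 14 cells (43.9% and 26.9%), at 488 [466 to 511] and 163 [138 to 191] CPM beside 83.2 and 7.72 CPM. Il6 occurred with Il23a in 108 and 15 cells, and with Slc7a2 in 72 and 7. All 4 genes were found together in 9 cells of the Runx3_fl library and in 0 of the Runx3 library.

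Il12b did not mark the group. It was found in 43 of the 246 Runx3_fl cells (17.5%) and 4 of the 52 Runx3 cells (7.69%), at 138 [126 to 151] and 15.1 [8.27 to 25.4] CPM, and the Nos2-negative cells held 159 [154 to 163] and 9.60 CPM. In the Runx3_fl library 25 cells held 95.2% of the Il12b UMIs of the Nos2 macrophages, which in turn had 3.49% of the library's Il12b UMIs, and 61.2% of those lay in cells without Csf1r. The group is therefore named here by Nos2 and not by Il12b. Il1a, which encodes IL-1α and was no part of the rule, was found in 78.5% and 71.2% of the Nos2 macrophages, at 653 [627 to 680.1] against 235 CPM in the Runx3_fl library and 321 [285 to 359.6] against 71.4 CPM in the Runx3 library.

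In the genome Nos2 lies at chr11:78920787-78960254, Il6 at chr5:30013114-30019981, Il12b at chr11:44400063-44414033 and Slc7a2 at chr8:40862396-40922308 on the plus strand, and Il23a at chr10:128296139-128298752 and Il1a at chr2:129299610-129309972 on the minus strand (GRCm38). The 250 bases upstream of 3 start sites are shown to place the labelled cytokines Il6 and Il12b beside Il1a, the cytokine gene outside the rule. The sequences are those of RefSeq for GRCm38.p6, on the strand of the gene, and capitals mark matches to the 5 motifs described after them.
Il6, chr5:30012864-30013113, plus strand: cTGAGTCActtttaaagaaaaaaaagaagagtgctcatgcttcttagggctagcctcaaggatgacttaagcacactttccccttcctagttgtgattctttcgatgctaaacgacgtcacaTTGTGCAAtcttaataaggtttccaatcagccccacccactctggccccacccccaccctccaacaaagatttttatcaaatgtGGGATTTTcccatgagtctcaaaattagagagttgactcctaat
Il12b, chr11:44399813-44400062, plus strand: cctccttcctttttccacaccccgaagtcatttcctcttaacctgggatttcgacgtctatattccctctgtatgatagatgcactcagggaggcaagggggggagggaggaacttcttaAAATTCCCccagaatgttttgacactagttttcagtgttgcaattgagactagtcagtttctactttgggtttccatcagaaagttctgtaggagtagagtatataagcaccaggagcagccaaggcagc
Il1a, chr2:129309973-129310222, minus strand: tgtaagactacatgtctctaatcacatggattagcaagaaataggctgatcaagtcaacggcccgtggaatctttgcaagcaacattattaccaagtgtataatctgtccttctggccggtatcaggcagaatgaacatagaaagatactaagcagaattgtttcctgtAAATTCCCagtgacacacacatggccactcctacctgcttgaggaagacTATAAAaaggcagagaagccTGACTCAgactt

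The motifs were searched on both strands, and no matches overlap in the 3 sequences shown. GGGANNTT, the core of many NF-κB sites, stands 44 to 37 bases before the start of Il6, 130 to 123 bases before Il12b and 81 to 74 bases before Il1a. It was found in 12.8% of 32851 promoters of that length. TGANTCA, an AP-1-like word held by 6.75% of promoters, lies 249 to 243 bases before Il6 and 12 to 6 bases before Il1a. TTGCNNAA, a C/EBP-like word held by 9.56%, lies 128 to 121 bases before Il6. TATAAA, held by 12.4%, lies 32 to 27 bases before Il1a. GAAANNGAA, an interferon regulatory factor-like word, was in 7.13% of promoters. Of the 12 genes named below as highest in Nos2 macrophages 9 had a promoter sequence, and 5 of these held GGGANNTT (AA467197, Calhm6, Cxcl9, Gpr84 and Il1a), 4 held GAAANNGAA (Calhm6, Cxcl9, Saa3 and Tarm1), 4 held TATAAA, 3 held TGANTCA and 3 held TTGCNNAA. A match is a description of the letters and does not show binding.

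Because free RNA in a droplet can place a UMI in a cell that does not make the transcript, the shares of cells with a UMI were set beside those of T cells after each cell was thinned to 5000 UMIs. Cxcl9, whose product attracts T cells through CXCR3, was found in 94.4% of thinned Nos2 macrophages, 60.8% of Nos2-negative cells and 5.08% of Cd3e-positive T cells in the Runx3_fl library, and in 69.4%, 23.8% and 6.16% in the Runx3 library. Tnf was found in 85.8%, 60.5% and 8.16%, and in 73.5%, 55.2% and 21.99%. Il1a was found in 68.7% and 35.5% of Nos2 macrophages and Nos2-negative cells in the Runx3_fl library and in 46.9% and 16.1% in the Runx3 library. Nos2 stood at 0.274% and 0.587% in the T cells, and Il6 at 0.720% and 1.47%. Slc7a2 and Il6 were also counted in all Nos2-positive, Csf1r-positive cells free of Xcr1, Cd3e and Cd79a, a set whose choice does not use them. Slc7a2 was then in 28.6% [23.4 to 34.2] of 280 Nos2-positive cells and 10.2% [8.63 to 11.9] of 1397 Nos2-negative cells of the Runx3_fl library, and in 7.61% of 92 and 1.59% of 1572 in the Runx3 library. Il6 was in 49.6% against 26.9% and in 22.8% against 10.4%. Il12b was in 11.4% against 9.16% and in 1.09% against 1.72%.

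**Figure D1:**
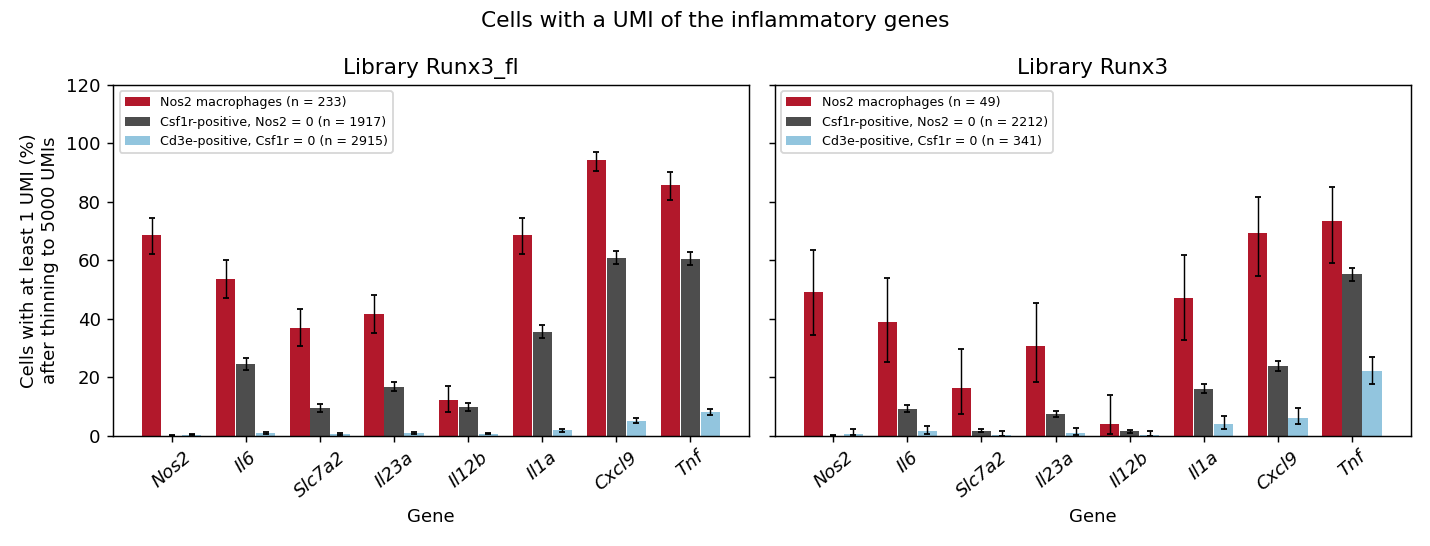
Share of cells with at least 1 UMI of 8 genes (vertical axis, percent) after thinning every cell to 5000 UMIs, for Nos2 macrophages, Nos2-negative cells and Cd3e-positive T cells of each library, with exact 95% intervals. Cxcl9, Tnf and Il1a, which were no part of the rule, were found more often in Nos2 macrophages than in Nos2-negative cells of both libraries. For Nos2, Il6, Slc7a2, Il23a and Il12b the bars describe genes that chose the cells, and Il12b was in 12.02% and 9.86% of them in the Runx3_fl library.

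Across all genes, few differed by 2-fold or more between Nos2 macrophages and Nos2-negative cells. Ratios are log2 ratios of CPM with 10 CPM added to each side, over genes at 20 CPM in either group with 20 UMIs in all, so that low genes are pulled towards 0. In the Runx3_fl library 64 of 5834 genes were 2-fold higher (1.10%) and 189 were 2-fold lower (3.24%). In the Runx3 library 118 of 6402 were 2-fold higher (1.84%) and 184 were 2-fold lower (2.87%). The choice of cells set this contrast, so nothing is read from the counts. The median gene stood at -0.10 and -0.09, and with that median placed at 0 the counts were 94 higher and 152 lower in the Runx3_fl library and 165 higher and 153 lower in the Runx3 library. Without Xist-positive cells they were 58 and 207, and 118 and 184. Of 5616 genes compared in both libraries 37 were 2-fold higher in each, 68 were 2-fold lower in each and 0 went 2-fold in opposite directions.

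Saa3, Cfb, Inhba, Tarm1, Procr, Cxcl9, AA467197, Vcam1, Il1a, Ly6i, Gpr84 and Calhm6 had the largest positive ratios across both libraries. Saa3, an acute-phase serum amyloid, had the largest ratios and stood at 451 [429.6 to 474] against 78.2 CPM in the Runx3_fl library and 1834 [1747 to 1923] against 267 CPM in the Runx3 library (log2 ratios 2.39 and 2.73). It was concentrated in few cells. It was found in 33.7% of the Runx3_fl Nos2 macrophages, where 25 cells held 82.1% of its UMIs, and in 44.2% of those of the Runx3 library, where 1 cell held 25.04%. Cfb, complement factor B of the alternative pathway, was found in nearly all of them (91.5% and 92.3%), at 867 [837 to 898] against 219 CPM in the Runx3_fl library and 759 [703 to 817] against 199.7 CPM in the Runx3 library (1.94 and 1.87). Cxcl9 stood at 3315 [3256 to 3375] against 1173 CPM in the Runx3_fl library and 1567 [1487 to 1649.5] against 246 CPM in the Runx3 library (1.49 and 2.62). Inhba, the subunit of activin A, stood at 382 [362 to 403] against 103 CPM in the Runx3_fl library and 129 [107 to 154] against 31.2 CPM in the Runx3 library (1.80 and 1.75). Procr, the receptor for protein C, stood at 386 [366 to 406] against 116 CPM in the Runx3_fl library and 103 [83.05 to 125] against 20.4 CPM in the Runx3 library (1.66 and 1.89).

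The remaining genes of this set were less abundant. Vcam1, an adhesion molecule, stood at 117 [106 to 128] against 35.6 CPM in the Runx3_fl library and 76.7 [59.9 to 96.8] against 16.7 CPM in the Runx3 library. Tarm1, an activating receptor of myeloid cells, stood at 110.0 against 25.7 and at 78.9 against 16.96 CPM. Gpr84, a receptor for medium-chain fatty acids, stood at 76.9 against 19.03 and 56.2 against 15.98 CPM. Gpr84 passed the 20 CPM filter only through the Nos2 macrophages in both libraries, and Tarm1 and Vcam1 did so in the Runx3 library. At the 50 CPM needed for naming, this also held for Tarm1 and Vcam1 in the Runx3_fl library. It held for Inhba and Procr in the Runx3 library. Ly6i, of the Ly6 family of surface proteins, stood at 696 against 253 and 425 against 155 CPM. Calhm6 and AA467197 had ratios of 1.31 and 1.58, and of 1.48 and 1.70. These 12 genes, Il1a among them, also had log2 ratios of at least 1 against the Nos2-negative cells that held no Xcr1, Cd3e or Cd79a, a comparison called lineage-free below. Without Xist-positive cells their ratios in the Runx3_fl library lay between 1.28 and 2.08.

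**Figure D2:**
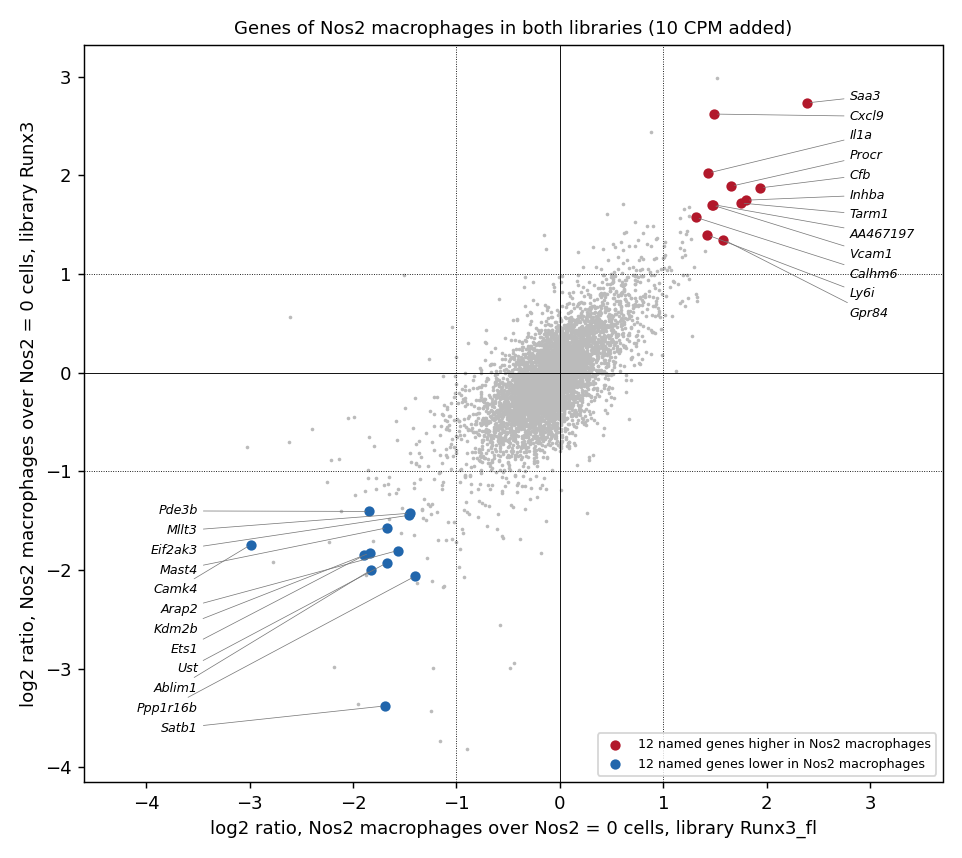
Log2 ratio of CPM in Nos2 macrophages over Nos2-negative cells in the Runx3_fl library (horizontal) and in the Runx3 library (vertical), 1 point per gene, with the 24 genes named by rank labelled. Saa3 lies farthest from 0 among the labelled higher genes in both libraries (2.39 and 2.73), and Cxcl9 has a larger ratio in the Runx3 library (2.62) than in the Runx3_fl library (1.49).

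Of the 12 genes lowest in Nos2 macrophages, 10 were not 2-fold lower in both libraries once the compared cells were lineage-free. Ets1, a transcription factor abundant in lymphocytes, had ratios of -1.89 and -1.85, and against lineage-free cells 0.02 and -0.42. Camk4, a kinase abundant in T cells, went from -2.99 and -1.74 to -0.28 and -0.10. Satb1, Ablim1, Mast4, Arap2, Eif2ak3, Mllt3, Pde3b and Ppp1r16b completed the list with ratios between -1.40 and -3.38. Kdm2b, a histone demethylase, and Ust, a sulfotransferase, were the 2 that were lower in both libraries against lineage-free cells as well. Kdm2b stood at 68.6 [60.4 to 77.7] CPM in Nos2 macrophages and 154 CPM in lineage-free cells of the Runx3_fl library, and at 41.1 [29.1 to 56.4] and 108 CPM in the Runx3 library. Ust stood at 31.7 [26.2 to 38.1] and 118 CPM, and at 10.8 [5.18 to 19.9] and 75.4 CPM.

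Inflammatory cytokine genes outside the rule had list medians near 1 in Nos2 macrophages. Entry to the group needed Il6, Il12b, Il23a or Slc7a2, so genes found together with these were favoured by the choice. Over all genes 1.10% were 2-fold higher and 3.24% lower in the Runx3_fl library, and 1.84% and 2.87% in the Runx3 library. These shares belong beside each list count of this contrast below. Of 11 inflammatory cytokine genes outside the rule 6 were 2-fold higher in the Runx3_fl library (Il1a, Il1b, Tnf, Il12a, Il27 and Inhba), with a median log2 ratio of 1.05, and 4 of 10 in the Runx3 library (Il1a, Il1b, Il18 and Inhba), with a median of 0.98, where the median over all genes was -0.10 and -0.09. Against lineage-free cells 4 and 3 genes were 2-fold higher and the medians were 0.83 and 0.84, and without Xist-positive cells the medians were 0.98 and 0.97. Il1b, the IL-1β gene, was the most abundant, at 7479 [7390.1 to 7568] against 3602 CPM in the Runx3_fl library and 3075 [2963 to 3190.2] against 1458 CPM in the Runx3 library (1.05 and 1.07). Tnf stood at 1584 [1543 to 1625] against 659 CPM in the Runx3_fl library and 581 [533 to 633] against 295 CPM in the Runx3 library (1.25 and 0.96). Il12a, the subunit that pairs with Il12b in IL-12, stood at 28.1 against 3.58 and 10.8 against 2.17 CPM, and passed the filter on low genes only through the Nos2 macrophages of the Runx3_fl library. Il27, of the same cytokine family, stood at 69.2 against 24.8 and 43.2 against 16.7 CPM. In the Runx3 library it passed that filter only through the Nos2 macrophages. Il18 had ratios of 0.61 and 1.11 and Osm 0.79 and 0.61. Per cell, the UMIs of this list came to a median of 96.8 per 10000 UMIs (range 0 to 337) in the Nos2 macrophages and 37.5 in Nos2-negative cells of the Runx3_fl library, and to 42.8 (5.65 to 160) and 15.7 in the Runx3 library.

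Chemokines were higher by less. Of 12 chemokine genes 1 (Cxcl9) was 2-fold higher in the Runx3_fl library (median 0.58), and of 14 in the Runx3 library 4 (Ccl5, Cxcl1, Cxcl9 and Cxcl10) were (median 0.85). Ccl5 stood at 2872 [2817 to 2928] against 1559 CPM in the Runx3_fl library and 2501 [2400.5 to 2605] against 451 CPM in the Runx3 library, with ratios of 0.88 and 2.44; it is also made by T and NK cells. Cxcl2, a neutrophil attractant, stood at 9067 against 5279.9 and 4229 against 2471 CPM. Cxcl10, a CXCR3 ligand like Cxcl9, had ratios of 0.87 and 1.02. Ccl6 was lower, with ratios of -0.70 and -0.36.

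The ratios of interferon-responsive genes over Nos2-negative cells had higher medians in the Runx3 library. The interferon-γ list itself summed to less there. It came to 8622 CPM in the Runx3_fl and 5701 CPM in the Runx3 Nos2 macrophages, and to 4934 and 2588 CPM in Nos2-negative cells. Of 19 interferon-γ target genes 1 was 2-fold higher in the Runx3_fl library (Cxcl9, list median 0.45) and 5 in the Runx3 library (Cxcl9, Gbp2, Gbp4, Gbp5 and Gbp6, median 0.84). Gbp5, a guanylate-binding protein of host defence, stood at 265 against 167 and 162 against 54.1 CPM. Ciita, the master regulator of MHC class II genes, had -0.10 and -0.73, and 0 of 14 and 1 of 15 (Cd40) antigen presentation genes were 2-fold higher (medians 0.08 and -0.01). H2-Aa stood at 4323 against 4031 and 3279 against 3016 CPM. Among type I interferon-stimulated genes 0 of 14 were 2-fold higher in the Runx3_fl library (median 0.35) and 5 of 16 in the Runx3 library (Isg15, Ifit2, Rsad2, Cmpk2 and Ifi205, median 0.92). Isg15, a ubiquitin-like antiviral protein, stood at 1402 against 733 and 1607 against 621 CPM.

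The enzymes around nitric oxide were mostly higher by less than 2-fold. In the list of arginine, nitric oxide and itaconate genes 0 of 9 were 2-fold higher in the Runx3_fl library (median 0.35) and 1 of 9, Arg2, in the Runx3 library (median 0.44). Ass1, which rebuilds arginine from citrulline, stood at 224 [209 to 240.0] against 117 and 169 [143 to 197] against 79.6 CPM. Acod1, which makes itaconate, stood at 2149 against 1422 and 939 against 588 CPM. Arg2, the mitochondrial arginase, had ratios of 0.91 and 1.15, and Gch1, which makes the cofactor of the Nos2 enzyme, 0.35 and 0.49. Arg1 was nearly absent at 0.827 and 1.08 CPM. Slc7a1, another arginine transporter, was lower (-0.68 and -0.95), whereas the cystine transporter Slc7a11 had 0.98 and 0.44.

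The other lists had medians below those of the cytokines. Ptgs2, the prostaglandin-making cyclooxygenase, stood at 4141 against 2058 and 1784 against 727 CPM. Of 21 glycolysis and hypoxia genes 0 and 1 (Bnip3) were 2-fold higher (medians 0.45 and 0.46), with Hif1a at 0.68 and 0.63 and the glucose transporter Slc2a1 at 0.61 and 0.58. Toll-like receptor pathway genes were 2-fold higher in 0 of 13 and 1 of 14 cases (Cd14, medians 0.29 and 0.34), inflammasome genes in 0 of 11 and 0 of 11 (0.26 and 0.44) and NF-κB pathway genes in 0 of 15 and 0 of 15 (0.17 and 0.40). Genes that restrain cytokines were 2-fold higher in 1 of 13 (Il1rn) and 2 of 13 cases (Il1rn and Il10), with medians of 0.09 and 0.56. Il1rn, the IL-1 receptor antagonist, stood at 1681 against 745 and 1561 against 519.9 CPM. Il10 stood at 155 [143 to 169] against 174 CPM in the Runx3_fl library and at 308 [273 to 346] against 110.4 CPM in the Runx3 library. Immediate early and heat shock genes were lower (2 of 18 by 2-fold in each library, medians -0.34 and -0.35). Against lineage-free cells of the Runx3_fl library Il1rn had 0.96, no gene of the restraint or prostaglandin lists was 2-fold higher, and the restraint and inflammasome medians were -0.05 and 0.01. In the Runx3 library Arg2 and Bnip3 lost their 2-fold difference against lineage-free cells, 4 interferon-γ and 3 type I interferon genes were 2-fold higher, and their lists' medians were both 0.74. Without Xist-positive cells the Runx3_fl medians were 0.47 for chemokines, 0.44 for interferon-γ targets, 0.39 for type I interferon genes, 0.37 for the nitric oxide list, 0.04 for cytokine restraint and 0.15 for the inflammasome.

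The cells were checked against lineage markers, and macrophage markers were present. The rule bars Xcr1, Cd3e and Cd79a from Nos2 macrophages and not from Nos2-negative cells, so lower dendritic cell, T cell and B cell genes follow in part from the choice, and lineage-free values are given as well. Adgre1, which encodes F4/80, was found in 54.1% and 73.1% of Nos2 macrophages, Fcgr1 (CD64) in 62.6% and 90.4%, and Cd68 in 69.9% and 82.7%. In Nos2-negative cells these were 38.03% and 47.8%, 46.3% and 56.6%, and 58.4% and 57.5%. The summed macrophage list came to 7264 against 5910 CPM in the Runx3_fl library and 6756 against 5011 CPM in the Runx3 library. Lineage-free cells held 6879 and 5613 CPM of it, and the list medians against them were 0.10 and 0.43, beside 0.28 and 0.58. The summed dendritic cell list came to 184 against 312 and 139 against 302 CPM (308 and 311 in lineage-free cells), and Zbtb46, a defining factor of these cells, to 14.1 against 36.3 and 2.16 against 26.4 CPM. The migratory dendritic cell list was closer, at 453 against 494 and 343 against 380 CPM. Its gene Ccr7 was in 43.3% of thinned Nos2 macrophages and 35.4% of thinned Nos2-negative cells in the Runx3_fl library. In the Runx3 library these were 22.4% and 29.2%. Neutrophil genes came to 756 against 1208 and 1119 against 5580 CPM (1506 and 6952 in lineage-free cells). The T and NK list came to 3201 against 2949 and 2580 against 728 CPM, most of it Ccl5, and 1859.6 and 679 CPM in lineage-free cells. In the Runx3_fl library 7 of its 10 genes were 2-fold lower in Nos2 macrophages than in Nos2-negative cells, and 0 were lower and 1 was higher against lineage-free cells. B and plasma cell genes came to 780 against 1234 and 1021 against 6825 CPM, but lineage-free cells held 478 and 806 CPM, below the Nos2 macrophages, and 1 cell held 73.3% and 76.1% of the Igkc UMIs of the Nos2 macrophages. Of 6 mast cell genes 5 were at 0 in the Nos2 macrophages of each library. The part of other cells' RNA in the ratios above was not tested beyond the lineage-free comparison.

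By the markers of maturation the group was mixed. Ly6c2 together with a C1q gene was found in 127 of 246 Nos2 macrophages of the Runx3_fl library (51.6% [45.2 to 58.0]) and 32 of 52 of the Runx3 library (61.5% [47.0 to 74.7]), against 26.2% and 43.7% of Nos2-negative cells. Ly6c2 without C1q was found in 37.4% and 30.8%, C1q without Ly6c2 in 6.91% and 3.85%, and neither in 4.07% and 3.85%. Nos2 macrophages were deeper than Nos2-negative cells, which raises the chance of finding both. A Ly6c2 UMI was also frequent in T cells, so by itself it does not set a monocyte-like cell apart. In thinned Runx3_fl cells it was found in 76.4% of Nos2 macrophages, 65.6% of Nos2-negative cells and 61.1% of Cd3e-positive T cells. In the Runx3 library these shares were 93.9%, 83.5% and 47.8%. The part of free RNA in the Ly6c2 calls was not tested. On the CPM scale Ly6c2 stood at 953 [922 to 986] against 669.8 CPM in the Runx3_fl library and 2341 [2244 to 2442] against 1843 CPM in the Runx3 library. C1qa stood at 324 [305 to 343] against 206 CPM in the Runx3_fl library and 610.5 [561 to 663] against 339 CPM in the Runx3 library. Cd14, a receptor for bacterial lipopolysaccharide, had ratios of 0.93 and 1.16 and F10, the coagulation factor carried by monocytes, 1.16 and 1.26. Ccr2, the receptor that brings monocytes into tissue, had -0.11 and -0.35, and the mannose receptor Mrc1 -0.77 and -0.01. Lyve1 was at 0 in both libraries, with Cd163 also at 0 in the Runx3_fl library and Timd4 at 0 in the Runx3 library.

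Within the group, cells with more Nos2 held more of some of these genes and less of others. Runx3_fl cells with 2 or more Nos2 UMIs (169) stood above cells with 1 (77) in Inhba (448 against 228 CPM) and Cxcl9 (3616 against 2615 CPM), and below them in Il10 (116 against 248 CPM) and Apoe (186 against 429 CPM), a lipid carrier of mature macrophages. Il6 was at 356 and 361 CPM. In the Runx3 library (29 and 23 cells) Inhba was at 177 and 77.9 CPM and Tnf at 798 and 352 CPM, whereas Il10 was at 309 and 307 CPM and Apoe at 1467 and 1546 CPM. Median depth was similar in the 2 sets of Runx3_fl cells, at 14638 and 14249 UMIs.

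In the Runx3_fl library the cells with and without C1q differed in Apoe and Il10, as the sets split by Nos2 did there, and in monocyte genes. Of the 246 Nos2 macrophages 25 held 76.1% of the Apoe UMIs, and 25 held 70.7% of the Il10 UMIs. Runx3_fl Nos2 macrophages with C1q (144) had more Apoe (363 against 103 CPM), Selenop (48.8 against 16.5 CPM) and Il10 (188 against 107 CPM) than those without (102), and less Thbs1 (163 against 328 CPM) and Chil3 (55.7 against 134 CPM), a monocyte gene. The Runx3 library, with 34 and 18 cells, gave 1823 and 782 CPM for Apoe, 185 and 605 CPM for Thbs1 and 84.0 and 181 CPM for Chil3. Nos2 stood at 304 and 379 CPM and Il6 at 327 and 403 CPM in the Runx3_fl cells with and without C1q. The 43 Runx3_fl cells with Il12b had more Zbtb46 (35.3 against 8.65 CPM), Ccr7 (391 against 217 CPM), the receptor of cells that migrate to lymph nodes, and Irf8 (455 against 270 CPM), and less Il10 (80.1 against 175 CPM) than the 203 without, with C1qa at 499.5 and 279 CPM. Zbtb46 was found in only 20 of the 246 Nos2 macrophages, with 51 UMIs in all, and the cell with the most held 21.6% of them. The 108 cells with Slc7a2 had less S100a8 than the 138 without (36.1 against 176 CPM), and more Inhba (475 against 301 CPM). S100a8 was found in only 31 of the 246 cells, of which 25 held 98.5% of its UMIs, so its difference rests on few cells. The cells with Slc7a2 also had less Il12b (62.1 against 205 CPM). Cells without Slc7a2 could enter only through Il6, Il12b or Il23a, so that Il12b difference was favoured by the choice.

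The cells with Nos2 and Csf1r that the rule left out for lack of the 4 further genes held less of the cytokines. In the Runx3_fl library these 56 cells stood at 125 CPM of Il1a, 324 CPM of Tnf and 3674 CPM of Il1b, where Nos2 macrophages stood at 653, 1584 and 7479 CPM and Nos2-negative cells at 235, 659 and 3602 CPM. Il1a and Tnf were also below the Nos2-negative cells, but the 56 cells were chosen for lacking Il6, Il12b, Slc7a2 and Il23a. The Nos2-negative cells were not, so cytokine genes found together with these 4 were disfavoured by the choice, and nothing is read from that difference. The 56 cells held more Mrc1 (69.5 against 12.7 CPM) and C1qa (529 against 324 CPM) than Nos2 macrophages. In the Runx3 library the 50 cells stood at 633 CPM of Cxcl9 and 31.7 CPM of Inhba, where Nos2 macrophages stood at 1567 and 129 CPM. Their median depth was lower, at 10787.5 and 11408.5 UMIs, and the part of depth in these differences was not tested.

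Between the libraries, more genes were higher than lower in the Runx3 Nos2 macrophages. Of 5982 genes 359 were 2-fold higher (6.0%) and 142 were 2-fold lower (2.37%) in the Runx3 library, and with the median gene, at 0.09, placed at 0 these were 284 and 174. Without Xist-positive cells they were 400 and 137. The 52 Runx3 cells gave 925492 UMIs in all, so each count of 1 UMI there is worth more than in the Runx3_fl library. For most genes the same ratio in Nos2-negative cells is given after the word "with", to show whether other Csf1r-positive cells of the same libraries differed alike.

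Most of the 8 genes highest in the Runx3 Nos2 macrophages also had log2 ratios above 2 in Nos2-negative cells. Without Xist-positive cells the 8 ratios lay between 2.73 and 3.66. Hspa1a and Hspa1b, heat shock genes whose near-identical sequences make the split between them uncertain, stood at 86.00 [76.7 to 96.1] and 48.8 [41.9 to 56.5] CPM in the Runx3_fl and at 572 [524 to 622] and 555 [508 to 606] CPM in the Runx3 Nos2 macrophages. Their log2 ratios were 2.60 and 3.27, and 2.69 and 2.85 in Nos2-negative cells. Hes1, a target of Notch signalling, stood at 16.8 [12.9 to 21.6] and 192 [165 to 223] CPM (2.92, with 3.29 in Nos2-negative cells). Slfn4, an interferon-responsive gene of myeloid cells, stood at 17.6 [13.6 to 22.5] and 217 [188 to 249] CPM (3.04 with 2.51). Lcn2, which binds bacterial siderophores, had 2.64 with 3.95, from 13 and 69 UMIs in 7 and 18 Nos2 macrophages. The neutrophil gene S100a8 was in 1.68% and 36.95% of thinned T cells of the Runx3_fl and Runx3 libraries. How far free RNA of other cells entered the Lcn2 ratio was not tested.

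The monocyte attractants had larger ratios in Nos2 macrophages than in Nos2-negative cells. Ccl2 stood at 44.7 [38.04 to 52.1] CPM in the Runx3_fl and 324 [289 to 363] CPM in the Runx3 Nos2 macrophages (2.61 with 1.30 in Nos2-negative cells), and Ccl7 at 1.93 [0.776 to 3.98] and 63.7 [48.5 to 82.2] CPM (2.63 with 1.02). Ccl7 was found in 12 of the 52 Runx3 cells, of which 1 held 55.9% of its 59 UMIs. Ifit3, an interferon-stimulated gene with a near-identical copy, stood at 6.89 [4.46 to 10.2] and 117 [95.7 to 141] CPM (2.91 with 1.88). The difference between the cell groups was tested for none of these.

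The 8 genes lowest in the Runx3 Nos2 macrophages included Xist and a lymphocyte granzyme. Without Xist-positive cells the ratios of the 7 genes other than Xist lay between -1.53 and -2.26, and that of Gzma went from -3.66 to -1.53. Xist stood at 93.4 [83.8 to 104] CPM and at 0 UMIs. Gzma, a granzyme of T and NK cells, stood at 157 [144 to 170.3] and 3.24 [0.668 to 9.47] CPM, and 1 Runx3_fl cell held 44.3% of its UMIs. Pik3r1, a regulatory subunit of PI3 kinase, stood at 629 [603 to 655] and 156 [131 to 183] CPM (-1.95 with -1.30), and Fyco1, an adaptor of vesicle transport, at 231 [216 to 247] and 54.03 [40.1 to 71.2] CPM (-1.91 with -1.43). Upp1, which breaks down uridine, stood at 139 [127 to 152] and 27.01 [17.5 to 39.9] CPM (-2.01 with -1.41). Ifitm1, an interferon-induced membrane protein, had -1.85 with -1.13, and D16Ertd472e -1.95 with -1.46. Mmp12, macrophage elastase, stood at 68.9 [60.6 to 78.00] and 9.72 [4.45 to 18.5] CPM, and was found in 26 Runx3_fl cells, of which 1 held 28.4% of its UMIs.

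**Figure D3:**
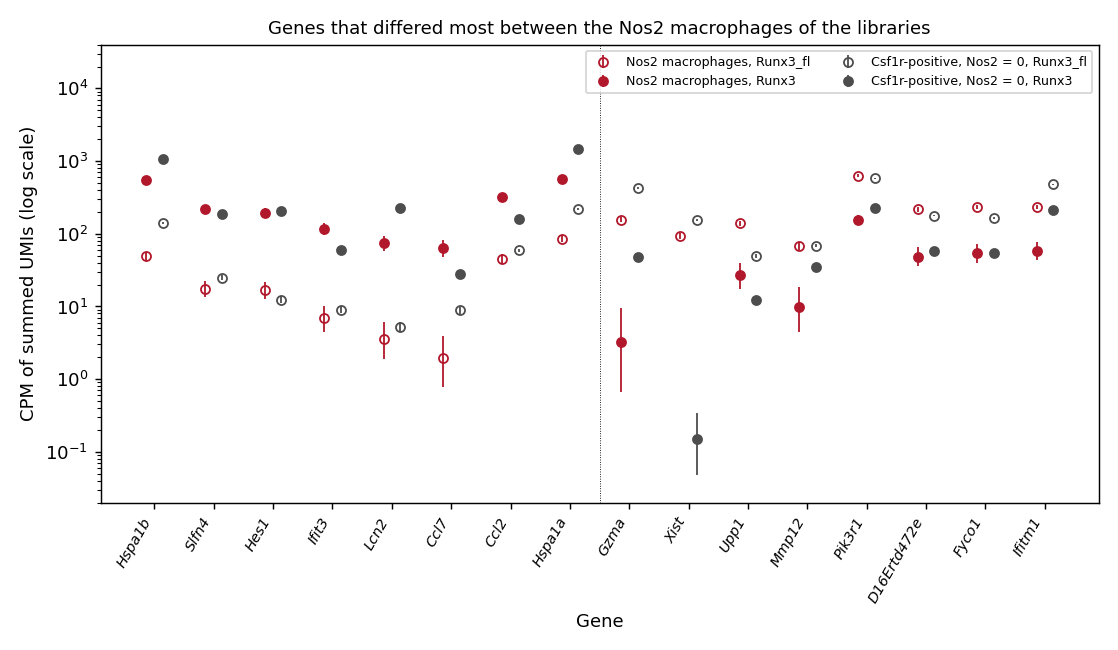
CPM of 16 genes (logarithmic axis) in Nos2 macrophages and Nos2-negative cells of each library, with exact 95% Poisson intervals. Hspa1a, Hspa1b and Hes1 are higher in both groups of the Runx3 library, Ccl2 is at 44.7 and 324 CPM in Nos2 macrophages of the Runx3_fl and Runx3 libraries, and Xist in the Runx3 Nos2 macrophages is 0 and not drawn.

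Of 16 type I interferon genes 9 were 2-fold higher in the Runx3 Nos2 macrophages, beside 6.0% of all genes, but the summed list differed little. It came to 6522 CPM in the Runx3_fl and 6760 CPM in the Runx3 Nos2 macrophages. Per cell, the list had a median of 60.6 and 57.9 per 10000 UMIs, so the abundant genes of the list did not share the difference. The median log2 ratio of the 16 genes between the libraries was 1.21. In Nos2-negative cells the median was 0.51, and without Xist-positive cells it was 1.12 in Nos2 macrophages. Irf7, the factor that amplifies the type I response, stood at 95.9 [86.1 to 107] CPM in the Runx3_fl and 571 [523 to 621] CPM in the Runx3 Nos2 macrophages (2.45 with 2.24 in Nos2-negative cells). Usp18, which removes Isg15 from proteins, stood at 19.3 [15.04 to 24.4] and 118 [96.7 to 142] CPM (2.12 with 1.16). Isg15 itself had 0.20 with -0.24. Interferon-γ targets had a median of -0.32, with 2 of 19 genes, Cxcl9 and Iigp1, 2-fold lower, beside 2.37% of all genes. Without Xist-positive cells that median was -0.15, and in Nos2-negative cells it was -0.50 with 6 genes lower.

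Inflammatory cytokine genes were divided between the libraries. Of 12 genes 4 were 2-fold lower in the Runx3 Nos2 macrophages and 2 were 2-fold higher, beside 2.37% and 6.0% of all genes. The list median was -0.37, with -0.27 in Nos2-negative cells and -0.43 without Xist-positive cells. The 4 lower genes were Il1b (-1.28 with -1.30 in Nos2-negative cells), Tnf (-1.43 with -1.13), Il1a (-1.003 with -1.59) and Inhba, whose 382 and 129 CPM are given above. The 2 higher genes were Il18 (1.23 with 0.73) and Il15 (1.02 with 0.06). The rule genes Il6, Slc7a2 and Il23a, described above, also had lower CPM in the Runx3 library. Chemokines had a median of -0.03 (0.04 without Xist-positive cells, and -0.52 in Nos2-negative cells), with 5 of 14 higher and 6 lower. The higher ones were the monocyte attractants Ccl2, Ccl7 and Ccl12 (2.45, and 1.26 in Nos2-negative cells) together with Ccl6 and Ccl9, and the lower ones were Ccl3 (-1.48 with -0.76), Ccl4 (-1.65 with -1.63), Cxcl1, Cxcl2, Cxcl9 and Cxcl10.

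Several genes of mature macrophages were higher in the Runx3 Nos2 macrophages. Of 10 resident macrophage genes 6 were 2-fold higher, where 6.0% of all genes were 2-fold higher and 2.37% lower. The list median was 1.20, in Nos2-negative cells it was 0.85, and without Xist-positive cells it was 1.17 in Nos2 macrophages. Apoe stood at 259 [243 to 276] and 1505 [1427 to 1586] CPM (2.49 with 1.89 in Nos2-negative cells), Mrc1 at 12.7 [9.28 to 16.9] and 56.2 [41.96 to 73.7] CPM (1.55 with 0.78), and Cx3cr1, Selenop and Cd63 with Hes1 made up the 6. C1qa, C1qb and C1qc were not among the 6, and were found in 41.5%, 55.3% and 45.5% of Runx3_fl Nos2 macrophages. In the Runx3 library these shares were 55.8%, 57.7% and 50%. Macrophage identity genes had a median of 0.63, with 4 of 12 higher and 1 lower, and 0.48 in Nos2-negative cells. Mertk, a receptor for the uptake of dying cells, had 1.48 with 1.25. The lower gene was Lyz2, at 3339 [3279.7 to 3399] and 1261 [1189.6 to 1335] CPM (-1.40 with -1.17). Ly6c2, a monocyte gene, was also higher (1.29 with 1.45).

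Immediate early and heat shock genes had a median of 0.83 (7 of 18 higher, beside 6.0% of all genes) and 0.91 in Nos2-negative cells. Jun had 2.06 with 1.98 in Nos2-negative cells, and Fos 1.71 with 1.48. These genes respond to tissue dissociation as well as to stimulation, and the part of cell preparation in the differences between libraries was not tested.

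Of the 11 genes on which the study centred, 1 (Il1b) was 2-fold higher and 1 (Hspa1a) 2-fold lower in the Nos2 macrophages of the Runx3_fl library than in Nos2-negative cells. In the Runx3 library 2 (Il1b and Ccl5) were higher and 1 (Hspa1a) was lower. Nr4a1, a nuclear receptor, stood at 141 [129 to 153] against 186 CPM in the Runx3_fl library and 319.8 [284 to 358] against 413 CPM in the Runx3 library, so that the Nos2 macrophages differed between libraries by a log2 ratio of 1.13, with 1.11 in Nos2-negative cells. Zfp36, whose product shortens the life of cytokine mRNAs, stood at 643 [617 to 669] against 603 and 1291 [1219 to 1367] against 1274 CPM. Runx3 differed from Nos2-negative cells by log2 ratios of 0.00 and 0.14. The list was drawn from the study's text, part of which rests on these libraries, so it is no independent evidence of a direction.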

How the data were processed

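Colon cells of 2 mouse libraries were profiled by 10x 3' scRNA-seq. The deposited files hold raw UMI counts per gene and cell, made by the authors with Cell Ranger 7.1.0 per the file headers. The submitters' processing notes also name Seurat 4 and the build mm10. From these counts, cells with 200 to 6000 genes and at most 15% mitochondrial UMIs were kept, after the study's limits, which left 11885 of 12968 and 8167 of 8953 cells. UMIs were summed per group, and ratios were log2 ratios of CPM with 10 CPM added. Genes needed 20 CPM in either group and 20 UMIs in all. With 1 library per title no test was run across all genes, and 2-fold was the limit for a call. Intervals were exact (Poisson for CPM, Clopper-Pearson for shares) at 95%. Doublets were scored against simulated doublets (30 neighbours, 0.8% expected per 1000 cells) and kept, with an alternative without them. Cells were thinned to 2000 or 5000 UMIs where shares with a UMI were compared.

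Named were the 12 genes with the largest ratios in each direction by the smaller of both libraries' sizes (at least 50 CPM in a group of each library), the 8 with the largest in each direction between libraries (50 CPM and 10% of cells), and examples of 27 gene lists. Lists held 335 genes, 332 of them in the files. The members, lists and rules were chosen with earlier results of these data known. Of 32285 gene identifiers 32235 matched the GENCODE vM21 annotation (GRCm38), and promoters came from the RefSeq table. Scripts were tested on simulated data. Alternatives varied the CPM added, the filter on low genes, the Nos2 minimum, doublets, the compared cells, depth and centring, and cells with Xist were left out after the data were seen. Computation was with scipy 1.17.1 and numpy 2.4.6 for statistics, scikit-learn 1.9.0 for neighbours and matplotlib 3.10.9 for plots, under Python 3.11.15.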

Additional observations from a re-analysis of the deposited data

Results flagged for a closer look

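For 7 genes of the lists the log2 ratio of Nos2 macrophages over Nos2-negative cells had opposite signs in the 2 libraries, by at least 0.25 each way. The difference was not tested for any of them, since each library gives 1 value. Ccl2, a monocyte attractant, had -0.34 in the Runx3_fl library and 0.97 in the Runx3 library. Ccl3, an attractant of inflammatory cells, had 0.45 and -0.28. Il15, which sustains NK and memory T cells, had -0.41 and 0.54. Isg20, an interferon-stimulated nuclease, had -0.34 and 0.68. Dusp2 and Tnip3, which dampen MAP kinase and NF-κB signalling, had -0.32 and 0.58, and -0.28 and 0.53. Il1r1, the receptor of IL-1, had -0.59 and 0.75.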

How the results depend on the processing

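Of 62 alternative values of the shares and counts, 46 stayed within 1.5 times the reported count or within its interval and 16 moved. The share of Nos2 macrophages was 1.42% and 0.355% in the Runx3_fl and Runx3 libraries when 2 Nos2 UMIs were required, and 0.364% and 0.0794% after thinning to 2000 UMIs; it was higher in the Runx3_fl library in each. With 1 CPM added in place of 10, the genes 2-fold higher and lower were 99 and 296 in the Runx3_fl library, 201 and 345 in the Runx3 library, and 594 and 214 between libraries. Against lineage-free cells they were 37 and 51 in the Runx3_fl library, and 119 were lower in the Runx3 library. Against cells of the same depth 80 were lower in the Runx3_fl library. With 2 Nos2 UMIs required they were 194 and 341 in the Runx3 library. Ets1 turned from -1.89 to 0.023 against lineage-free cells of the Runx3_fl library, and Satb1 between libraries turned from -1.60 to 0.10 without doublet calls; that alternative leaves fewer cells, and the cause was not tested. Of the single-gene values 104 of 1225 moved. No paired analysis was possible because the labels give no replicate numbers, and no library could be left out with 1 per title. The values of the Runx3 library rest on 52 cells, and a count of 1 UMI there is a larger part of a value than in the Runx3_fl library.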

Other observations

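Transcription factors of the myeloid lineages differed little between Nos2 macrophages and Nos2-negative cells, with 1 of 19 2-fold higher and 1 lower in the Runx3_fl library and 2 of 22 higher and 1 lower in the Runx3 library. Over all genes 1.10% were higher and 3.24% lower in the Runx3_fl library, and 1.84% and 2.87% in the Runx3 library. Batf2, an interferon-induced factor of activated macrophages, was higher in both, at 150.0 [138 to 163] against 58.7 CPM in the Runx3_fl library and 79.96 [62.8 to 100.4] against 23.9 CPM in the Runx3 library. Nr1h3, which encodes the sterol receptor LXRα, had log2 ratios of 0.84 and 1.49, and Irf4, a factor of dendritic cells and lymphocytes, -0.93 and -2.07. Between the libraries Pparg (1.72), Maf (1.499) and Cebpb (1.29) were higher in the Runx3 Nos2 macrophages, with 0.49, 0.65 and 1.19 in Nos2-negative cells.

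Txnip, an inhibitor of glucose uptake and a partner of the inflammasome, stood at 21.5 [17.00 to 26.8] CPM in the Runx3_fl and 119.9 [98.7 to 144] CPM in the Runx3 Nos2 macrophages (2.04, with 1.74 in Nos2-negative cells). Vcan, a matrix proteoglycan of monocytes, had ratios over Nos2-negative cells of 1.12 and 0.02 and the haptoglobin gene Hp 1.32 and 0.77, while F13a1, a coagulation factor gene of monocytes, had -0.37 and -1.15. Of cell cycle genes 2 of 6 (Birc5 and Stmn1) were 2-fold lower in the Runx3_fl library (median -0.88, and -0.17 against lineage-free cells) and 1 of 4 (Top2a) in the Runx3 library, with Mki67 at 225 against 185 CPM and Top2a at 45.2 against 90.1 CPM in the Runx3_fl library. Of migratory dendritic cell genes 0 of 4 and 0 of 3 differed by 2-fold, and of stromal and epithelial genes 0 of 1 and 0 of 2.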
